A study of Mus musculus with 5 samples.

Results

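The nuclear genes for the proteins of the mitochondrial ribosome were compared between mouse N2A cells with and without knockdown of Upf1. The members were the protein-coding genes whose symbol starts with Mrpl or Mrps followed by a number, which gave 78 of the 55573 genes in the count table. N2A is a line of mouse neuroblastoma cells. The 3 siUpf1 libraries (replicates 1, 2 and 3) came from cells given 60 pmol of an siRNA against Upf1, and the 2 siCtl libraries (replicates 1 and 3) from cells given the same amount of a control siRNA. Polyadenylated RNA was sequenced from each, so all 5 libraries share 1 cell line and 1 transfection treatment. Nothing in the labels says that the replicates were separate cultures, so the p-values measure only the spread between these libraries, which may be technical.

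The mitochondrial ribosome translates the few proteins encoded by mitochondrial DNA, all of them parts of the oxidative phosphorylation system. Its rRNAs are made inside the mitochondrion, while every one of its proteins is encoded in the nucleus, translated in the cytosol and imported. Some of these proteins descend from bacterial ribosomal proteins, and others were added during the evolution of mitochondria. UPF1 is the RNA helicase at the core of nonsense-mediated mRNA decay, the pathway that degrades mRNAs whose translation ends in an unfavourable context.

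The libraries held between 20402205 and 27717594 reads assigned to genes, and between 21757 and 23215 genes had at least 1 read. The siRNA lowered its target. Upf1 had normalised read counts of 5217 and 5243 in siCtl and of 2403, 2496 and 2449 in siUpf1, a log2 fold change of -1.10 (SE 0.051). Of 13 neuroblast and neuron markers, 10 had at least 10 reads in every library, and Dcx, Nefl and Nefm did not. Their summed level was 1668 and 1687 CPM in siCtl and 2154, 2075 and 2088 in siUpf1, so the label of a neural line held while the level differed between the groups. Marker sums of fibroblasts, astrocytes, oligodendrocytes, macrophages and endothelium lay between 0.938 and 21.5 CPM. The part of the neural marker shift in the results below was not tested.

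The mitochondrial ribosomal protein mRNAs leaned towards lower levels after Upf1 knockdown, with a minority higher. Of 77 members tested with DESeq2, 30 were lower, 10 were higher and 37 were not called at an adjusted p under 0.05. The share called was 51.9%, which lay between the 44.9% of all 15191 genes tested and the 56.4% of 11204 mRNAs with a mean normalised count of at least 50, so the members were not called more often than mRNAs of ordinary abundance. The direction was less even than in either set. Lower members made up 39.0%, against 22.9% of all genes and 29.1% of those mRNAs, and higher members 13.0%, against 22% and 27.3%. The median log2 fold change of the members was -0.09, with a range of -0.98 to 0.71, and that of all genes was -0.0024. Values of the siCtl and siUpf1 libraries did not overlap for 58 members, which is 75.3% beside 69.4% of all genes and 77.2% of those mRNAs. Without siCtl replicate 1, only 4 members were called higher and 27 lower. In bulk RNA, fewer cells of a type and less RNA per cell cannot be told apart.

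**Figure D1:**
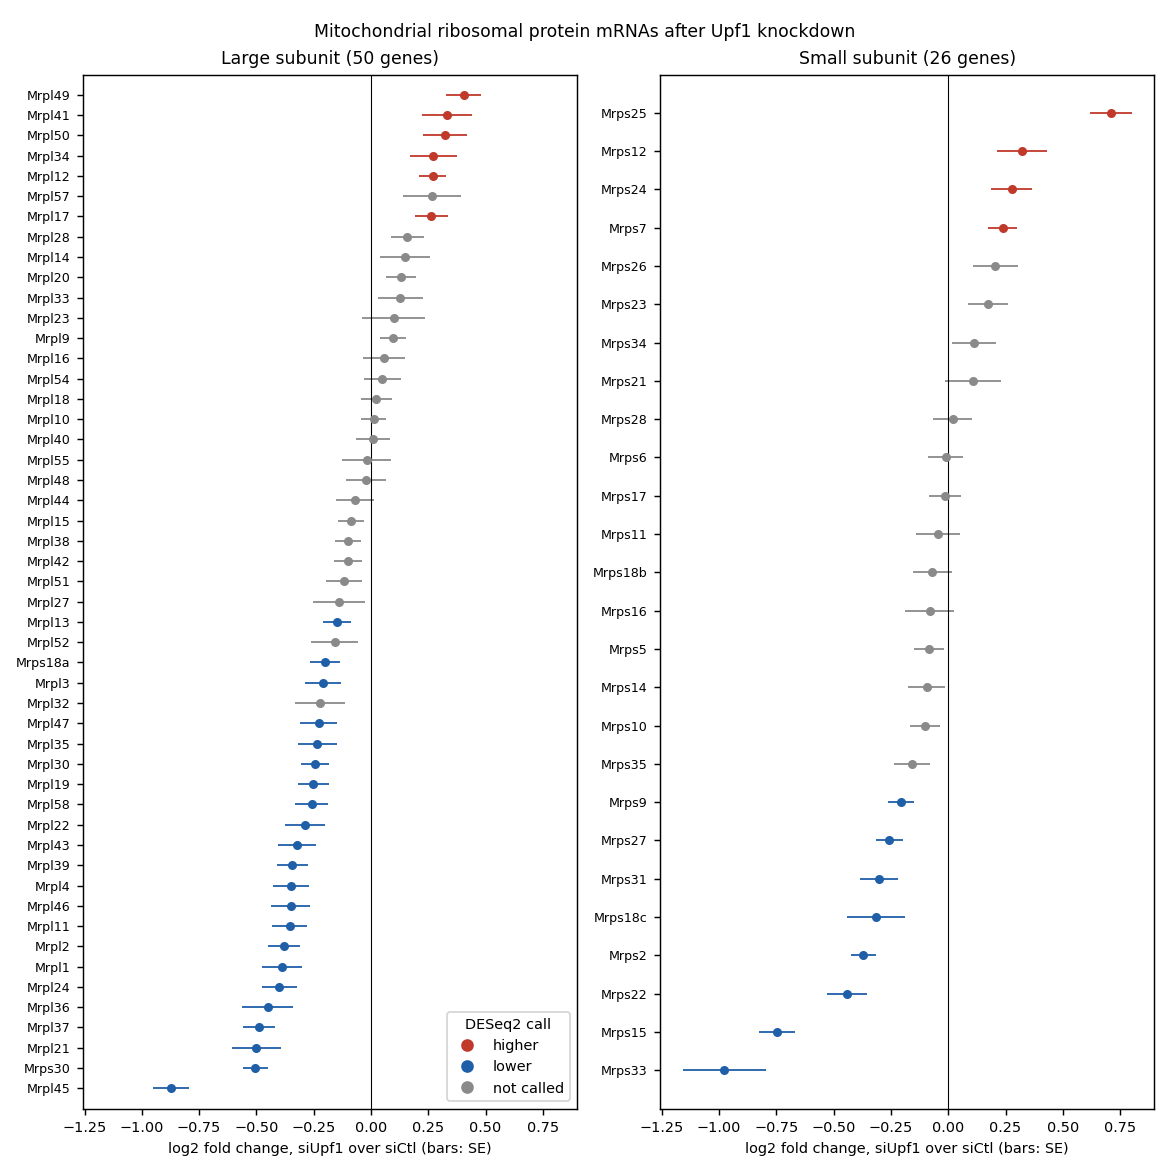
The log2 fold change of siUpf1 over siCtl (horizontal axis) is plotted for each tested member of the large subunit (50 genes, left) and the small subunit (26 genes, right), with bars for the standard error and colour for the DESeq2 call. In each subunit more members were lower than higher, 22 against 6 in the large and 8 against 4 in the small.

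The summed level of the members changed little. They took 0.401% and 0.420% of all assigned reads in the siCtl libraries and 0.391%, 0.387% and 0.383% in the siUpf1 libraries. The groups did not overlap, although the gap between both siCtl values was wider than that between the groups. The log2 ratio of the group means was -0.08, and it was -0.12 without siCtl replicate 1 and -0.05 without siCtl replicate 3. Measured per kilobase, the summed small-subunit level was 0.404 and 0.406 of the large-subunit level in siCtl and 0.400, 0.395 and 0.401 in siUpf1, a log2 difference of -0.02.

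Mrpl53 was the one member that could not be tested, since it had 0 reads in all 5 libraries, and fewer than 3 reads is the limit that a count of 0 allows. The gene lies on chromosome 6 from 83109040 to 83109939 (GRCm38), and 88.0% of its exonic bases are shared on the same strand with Gm42688. Reads that fall in exons of more than 1 gene can be left out by the counting step, so its level is unknown. Partial overlap of this kind touched 7 tested members. It covered 37.0% of the exonic bases of Mrps34 (shared with Nme3), 23.2% of Mrps18c (Gm43511), 19.9% of Mrps6 and 15.4% of Mrps24 (Urgcp), and under 4% of Mrpl3, Mrpl51 and Mrpl33. The counts of these genes may be incomplete.

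Mrps33, a mitochondrion-specific protein of the small subunit, fell most. The gene (chromosome 6, 39801804 to 39810988, minus strand) had normalised counts of 240.0 and 226 in siCtl and of 115, 127 and 115 in siUpf1. The siUpf1 mean was 50.9% of the siCtl mean, with a log2 fold change of -0.98 (SE 0.183, adjusted p = 5.38e-07 by DESeq2). Mrpl45, which sits beside the polypeptide exit tunnel and helps to hold the ribosome at the inner membrane, followed. Its gene (chromosome 11, 97315716 to 97329920, plus strand) had counts of 1533 and 1609.5 in siCtl and of 838, 889.8 and 850.4 in siUpf1, a log2 fold change of -0.87 (SE 0.077, adjusted p = 2.17e-28). Mrps15, the homologue of a bacterial protein that binds the small-subunit rRNA, was next (chromosome 4, 126046925 to 126055532, plus strand). It had counts of 1326 and 1357 in siCtl against 793, 821 and 784 in siUpf1, a log2 fold change of -0.75 (SE 0.079, adjusted p = 6.46e-20). The members given by library, here and below, were chosen from called members whose groups did not overlap. Their separation therefore adds no support.

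The next 5 members were lower by smaller and similar amounts. Mrps30, which despite its symbol is part of the large subunit, had normalised counts of 2897 and 2960.5 in siCtl and of 2068, 2083 and 2047 in siUpf1 (log2 fold change -0.50, SE 0.057, adjusted p = 9.46e-18 by DESeq2). Mrpl21, a large-subunit protein with a bacterial homologue, had 723 and 775 against 478, 579.8 and 535 (-0.50, SE 0.107, adjusted p = 1.25e-05). Mrpl37, a mitochondrion-specific large-subunit protein, had 1949 and 2047 against 1364, 1487 and 1426 (-0.49, SE 0.068, adjusted p = 8.87e-12). The groups were separate in each case, as the choice of genes required. Relative to its mean, Mrpl21 had the widest spread of these 3 among its siUpf1 libraries. Mrpl36, one of the smallest proteins of the large subunit, had 559 and 558 against 419.8, 399 and 405 (-0.45, SE 0.110, adjusted p = 1.72e-04). Mrps22, a mitochondrion-specific small-subunit protein in which mutations cause mitochondrial disease, had 989.5 and 1023 against 729, 776 and 720.3 (-0.44, SE 0.086, adjusted p = 1.69e-06). Of these 8 genes, Mrpl36 lost its call under 2 of the alternatives and the other 7 under none.

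Among the members that rose, Mrps25 stood apart. It encodes a mitochondrion-specific protein of the small subunit (chromosome 6, 92169525 to 92184033, minus strand). Its normalised counts were 659 and 769.8 in siCtl and 1106, 1237 and 1171 in siUpf1, so the siUpf1 mean was 164% of the siCtl mean. The log2 fold change was 0.71 (SE 0.092, adjusted p = 1.05e-13 by DESeq2). Mrpl49, a mitochondrion-specific large-subunit protein (chromosome 19, 6053622 to 6057785, minus strand), had counts of 1075 and 1105 in siCtl and of 1481, 1472 and 1377 in siUpf1, or 132% of the siCtl mean. Its log2 fold change was 0.40 (SE 0.075, adjusted p = 3.6e-07). The lowest siUpf1 library was above the highest siCtl library for both genes, as the choice of genes required.

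The other 6 of the 8 largest rises were within a narrow range. Mrpl41, a mitochondrion-specific protein of the large subunit, had 456 and 428 normalised counts in siCtl and 541, 575 and 554 in siUpf1 (log2 fold change 0.33, SE 0.109). Mrpl50, likewise of the large subunit, had 586 and 654 against 792, 774 and 761 (0.32, SE 0.096). Mrps12, whose bacterial homologue forms part of the decoding centre, had 486 and 498 against 592, 676 and 581 (0.32, SE 0.109). All 3 were separate between the groups, as the choice of genes required, with siUpf1 replicate 2 the highest for Mrps12. Mrps24, the homologue of a bacterial protein at the mRNA entrance, had 722 and 803 against 962, 914 and 899 (0.28, SE 0.090). Mrpl34, of bacterial descent and in the large subunit, had 557 and 602 against 701, 747 and 656 (0.27, SE 0.102). Mrpl12, the stalk protein that recruits translation factors, was the most abundant of this set with 3465 and 3766 against 4168, 4609 and 4314 (0.27, SE 0.058). The adjusted p was 1.75e-05 for Mrpl12 and between 0.0023 and 0.0188 for the others by DESeq2. Mrpl34 lost its call under 6 alternatives and Mrps12 under 5, while Mrpl12, Mrpl49 and Mrps25 kept theirs under all that were run. Without siCtl replicate 1 the log2 fold changes of Mrpl50 (0.24), Mrps24 (0.20), Mrpl34 (0.21) and Mrps12 (0.30) did not pass the test. Without siCtl replicate 3 this held for Mrpl41 (0.28), Mrpl34 (0.33) and Mrps12 (0.34). Among the siUpf1 libraries, Mrps24 (0.25) and Mrpl34 (0.27) lost their call without replicate 1, and Mrps12 (0.25) and Mrpl34 (0.23) without replicate 2.

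**Figure D2:**
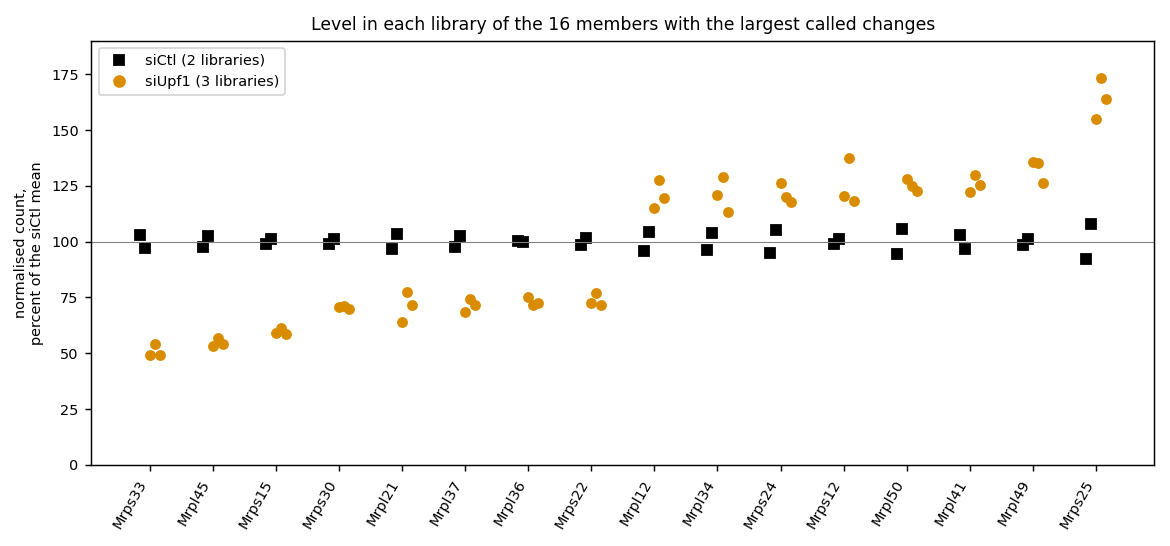
The normalised count of each library (vertical axis, percent of the siCtl mean, from 0) is plotted for the 8 members with the largest falls and the 8 with the largest rises, with squares for the 2 siCtl and circles for the 3 siUpf1 libraries. Means in siUpf1 ran from 50.9% for Mrps33 to 164% for Mrps25, and the rule that chose these genes kept only those whose groups did not overlap.

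Promoters of the 2 strongest members in each direction that had an entry in the RefSeq table are shown for what they hold, as 250 bases before to 50 bases after the annotated start (RefSeq, GRCm38.p6, strand of the gene). Capitals mark matches, on either strand, to letters bound by NRF1 (GCGC, any 2 bases and GCGC again), ETS factors (CCGGAAG) or YY1 (AAGATGG), which are known regulators of nuclear genes for mitochondrial proteins. Mrps33 is on the minus strand at chr6:39810887-39811186, Mrpl45 on the plus strand at chr11:97315466-97315765, Mrps25 on the minus strand at chr6:92183974-92184273 and Mrpl49 on the minus strand at chr19:6057706-6058005.
Mrps33: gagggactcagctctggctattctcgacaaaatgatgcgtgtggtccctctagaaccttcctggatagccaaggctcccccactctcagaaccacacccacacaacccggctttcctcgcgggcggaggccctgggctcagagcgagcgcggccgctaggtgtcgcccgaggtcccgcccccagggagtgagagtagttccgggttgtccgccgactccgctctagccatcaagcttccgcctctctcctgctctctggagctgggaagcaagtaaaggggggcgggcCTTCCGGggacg
Mrpl45: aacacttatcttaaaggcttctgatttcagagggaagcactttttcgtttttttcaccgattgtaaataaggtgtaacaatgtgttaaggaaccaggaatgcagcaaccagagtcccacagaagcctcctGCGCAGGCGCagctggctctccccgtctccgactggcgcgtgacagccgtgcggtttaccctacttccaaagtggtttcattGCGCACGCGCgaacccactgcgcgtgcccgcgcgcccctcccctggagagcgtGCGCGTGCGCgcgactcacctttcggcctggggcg
Mrps25: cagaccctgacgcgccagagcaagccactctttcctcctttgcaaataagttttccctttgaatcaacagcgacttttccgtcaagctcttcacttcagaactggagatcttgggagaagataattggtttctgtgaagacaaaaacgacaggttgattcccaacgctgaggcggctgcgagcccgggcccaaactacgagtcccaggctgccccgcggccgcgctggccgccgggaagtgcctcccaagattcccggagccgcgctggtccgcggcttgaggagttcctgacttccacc
Mrpl49: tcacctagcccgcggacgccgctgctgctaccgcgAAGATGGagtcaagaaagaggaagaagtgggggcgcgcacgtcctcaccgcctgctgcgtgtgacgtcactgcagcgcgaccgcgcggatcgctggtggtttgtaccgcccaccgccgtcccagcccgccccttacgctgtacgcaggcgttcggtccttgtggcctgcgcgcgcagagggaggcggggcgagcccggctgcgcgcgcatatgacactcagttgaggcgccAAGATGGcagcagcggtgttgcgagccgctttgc
The window of Mrps33 held an ETS match, that of Mrpl45 held NRF1 matches, that of Mrpl49 held YY1 matches and that of Mrps25 held none of these letters.

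Of the 78 members, 69 had a promoter entry and 68 of those were tested. The ETS letters were in 36.8% of the 68 member promoters against 9.93% of all 27025 genes with a promoter in the table, the NRF1 letters in 20.6% against 7.0%, and the YY1 letters in 19.1% against 7.28%. The E-box CACGTG was in 7.35% against 8.09% and the TATA letters TATAAA in 7.35% against 15.7%. None of these words contains another. The 27025 genes were not limited to those expressed in these cells, so the differences were not shown to be particular to the members. By direction, the ETS letters were in 3 of the 10 promoters of members that rose, 10 of the 27 of members that fell and 12 of the 31 of members not called. For the NRF1 letters these numbers were 2, 4 and 8, for YY1 4, 5 and 4, and for the E-box 0, 4 and 1. Mrps11 and Mrpl46 are divergent neighbours whose RefSeq promoter windows share 141 bases. Mrpl46 fell (log2 fold change -0.35) and Mrps11 did not pass the test (-0.05).

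The large subunit held 50 tested members, of which 22 fell and 6 rose, with a median log2 fold change of -0.13. The small subunit held 26, of which 8 fell and 4 rose, with a median of -0.08. The remaining member, Mrps36, is not a ribosomal subunit but belongs to an oxoacid dehydrogenase complex, and its log2 fold change of -0.08 did not pass the test. The difference between the subunits was not tested. By descent as assigned here to each member, 18 of 44 members with a bacterial homologue fell and 6 rose (median -0.09). Of 32 members assigned as mitochondrion-specific, 12 fell and 4 rose (median -0.10). Descent was not checked by sequence, so members such as Mrps28 and Mrpl55, counted as mitochondrion-specific and not called, may be misplaced. Split both ways, 14 of 29 large-subunit members of bacterial descent fell and 3 rose, against 8 and 3 of 21 mitochondrion-specific ones. In the small subunit, 4 of 15 members of bacterial descent fell and 3 rose, against 4 and 1 of 11 mitochondrion-specific ones. These counts moved with the siCtl libraries. Without siCtl replicate 3, 14 large-subunit members fell and 4 rose, and 10 members of bacterial descent fell. Without siCtl replicate 1, 3 large-subunit and 1 small-subunit members rose, of which 1 had a bacterial homologue.

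Around the polypeptide exit tunnel, 4 of 6 members fell (66.7%, against 39.0% of all members and 22.9% of all genes tested). These were Mrpl45, Mrpl24 (log2 fold change -0.40), Mrpl22 (-0.29) and Mrpl47 (-0.23). Mrpl17 rose (0.26), and Mrpl23 was not called (0.10). The median number of exons was 6.5 for these 6 members and 5 for all members. When either siCtl library was left out, 2 of the 6 fell instead of 4, since Mrpl22 and Mrpl47 were then not called, and without siCtl replicate 1 Mrpl17 (0.23) was not called. Mrpl47 also lost its call without siUpf1 replicate 2 (-0.19) or replicate 3 (-0.20). In the central protuberance, at the top of the large subunit, 2 of 7 members fell (28.6%, against 39.0% of all members) and none rose. They were Mrpl46 (-0.35) and Mrpl58 (-0.26), a peptidyl-tRNA hydrolase that became part of the ribosome, and Mrpl58 (-0.22) lost its call without siCtl replicate 3. The 3 members at the stalk each did something else, since Mrpl12 rose (0.27), Mrpl11 fell (-0.35) and Mrpl10 had a log2 fold change of 0.01 that did not pass the test.

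The remaining members that fell had log2 fold changes from -0.40 to -0.15. They included Mrpl1 (-0.39), Mrpl2 (-0.38) and Mrpl4 (-0.35), which descend from proteins that bind the bacterial large-subunit rRNA, and Mrps2 (-0.37), from a small-subunit protein. Mrpl39, Mrpl43, Mrps31 and Mrps27, all specific to mitochondria, lay between -0.34 and -0.26. The smallest fall was that of Mrpl13 (-0.15), whose call, like that of Mrps18c (-0.32), was lost under 8 alternatives. Leaving out siCtl replicate 3 also ended the calls of Mrps18c (-0.20), Mrpl13 (-0.15), Mrpl35 (-0.14), Mrpl3 (-0.14), Mrps9 (-0.16), Mrps18a (-0.15) and Mrpl19 (-0.23). The other 2 members that rose were Mrpl17 (0.26) and Mrps7 (0.24), the latter a homologue of a bacterial protein that starts assembly of the small-subunit head, and neither Mrpl17 (0.23) nor Mrps7 (0.21) passed the test without siCtl replicate 1. The 37 members not called had a median log2 fold change of -0.01 and ran from -0.22 for Mrpl32 to 0.27 for Mrpl57.

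Members with many exons fell more often than those with few. Among the 23 members whose representative transcript had at least 7 exons, 16 fell and none rose, with a median log2 fold change of -0.26. Among the 36 with at most 4 exons, 8 rose and 6 fell, with a median of 0.02. The 18 members with 5 or 6 exons lay between, with 2 higher, 8 lower and a median of -0.13. The median number of exons was 7 for members that fell, 3.5 for those that rose and 4 for those not called. Without siCtl replicate 3, 11 of the members with at least 7 exons fell, 5 of those with at most 4 rose, and the 8 lower members with 5 or 6 exons became 4. Without siCtl replicate 1, 13 of the members with at least 7 exons fell, and 3 members with at most 4 exons rose while 6 fell. With a length and GC trend removed, 1 of the 23 with at least 7 exons rose.

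Across all mRNAs with a mean normalised count of at least 50, the same split was much flatter. Of 7431 mRNAs with at least 7 exons, 32.4% were lower and 25.9% higher (median log2 fold change -0.04), and of 2154 with at most 4 exons 17.1% were lower and 33.2% higher (median 0.11). The Spearman rho between exon number and log2 fold change was -0.50 over the 77 members and -0.09 over 11204 mRNAs. It was -0.50, -0.47 and -0.47 when each siUpf1 library was set against the siCtl mean, and -0.51 to -0.47 over the alternatives. These are correlations across genes that share the same 5 libraries and are not independent replicates. Against the trend, 6 members with at most 4 exons fell. They were Mrps33 (3 exons), Mrpl36 (2), Mrpl43 (3), Mrps2 (4), Mrpl46 (4) and Mrpl35 (4).

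**Figure D3:**
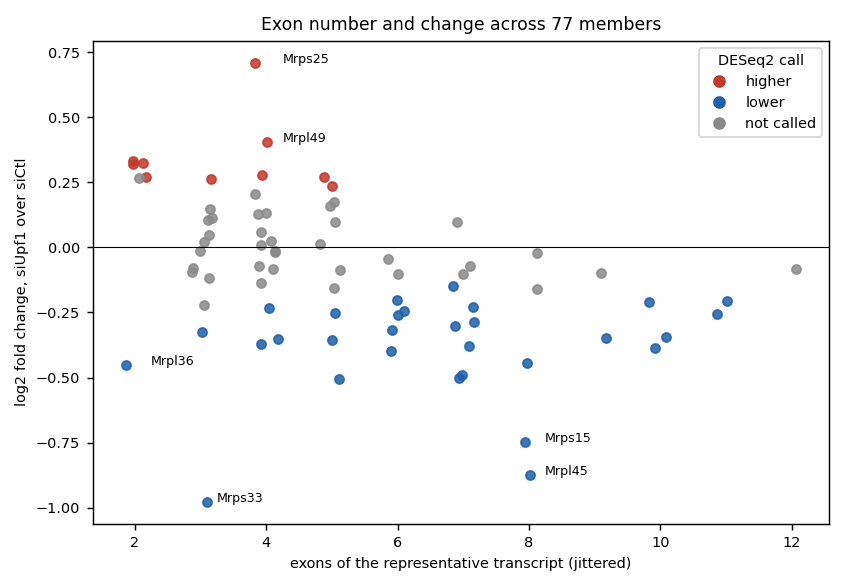
The log2 fold change of siUpf1 over siCtl (vertical axis) is plotted against the number of exons in the representative transcript (horizontal axis, jittered) for 77 members, coloured by DESeq2 call. None of the 23 members with at least 7 exons rose in this fit, while 6 with at most 4 exons fell, Mrps33 and Mrpl36 among them.

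Exon number moved with coding length within the members (rho = 0.74), so that the parts of both cannot be told apart here. Coding length had a rho of -0.43 with the log2 fold change over the members and of 0.06 over all mRNAs. For the whole transcript length the values were -0.13 and 0.17, for the length of the 3′ UTR 0.06 and 0.18, and for GC content 0.19 and 0.00. The mean count had a rho of -0.11 over the members and -0.01 over all mRNAs.

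A reading frame that ends early is one of several features that can bring a transcript under nonsense-mediated decay. Of the 77 tested members, 19 (24.7%) had at least 1 transcript annotated in GENCODE as a target of the pathway, against 30.1% of mRNAs. Of these 19, 1 rose (Mrpl17), 8 fell and 10 were not called. The members that fell were Mrpl21, Mrpl4, Mrps18c, Mrpl58, Mrpl35, Mrpl3, Mrps9 and Mrpl13. The median log2 fold change was -0.10 with such a transcript and -0.08 without one. Among all 77 tested members, 10 rose (13.0%) and 30 fell (39.0%). Without siCtl replicate 3 the count of lower members among the 19 was 2, and without siUpf1 replicate 3 it was 4. Gene counts do not separate transcripts, so the level of any single isoform was not measured.

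The Upf1 siRNA can also pair with other mRNAs through its seed, bases 2 to 8 from its 5′ end. Both strands are shown in letters of RNA with that seed in capitals, because sites for it were searched in the 3′ UTRs of the members.
sense strand: uCAAGGUUccugauaauua
antisense strand: uAAUUAUCaggaaccuuga
The site for the sense-strand seed, AACCTTG, was in the 3′ UTR of 8 members, which is 10.4% of the members and 10.2% of all mRNAs. It was in 3 that fell (Mrps33, Mrps30 and Mrpl36), in Mrpl12 and Mrps25, which rose, and in Mrps35, Mrps17 and Mrpl57, which were not called. A site of each of the 3 that fell and of Mrps25, which holds 2 and is shown with the first, is given with their seed match in capitals, as the strand of the mRNA.
Mrps33: ccaaccctAACCTTGcctctctc
Mrps30: tgtcattaAACCTTGcattctgg
Mrpl36: tcaaggaaAACCTTGtttacata
Mrps25: gttaagggAACCTTGcaacccca
The antisense-strand site, GATAATT, was in 3 members (3.90%, against 7.92% of all mRNAs), namely Mrps30, which fell, Mrps25, which rose, and Mrpl32, which was not called. The median log2 fold change of all mRNAs with the sense-strand site was -0.11 and that of mRNAs without it -0.01. For the antisense-strand site, which belongs to the strand that pairs with Upf1, these medians were -0.0037 and -0.02. Pairing at these sites was not tested.

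Members differed widely in level in the siCtl libraries. Per kilobase of the representative transcript, the siCtl level was highest for Mrpl42, at 4058 normalised counts, followed by Mrpl20 at 3111, Mrpl30 at 2766 and Mrpl12 at 2748. The lowest levels per kilobase among tested members were those of Mrps25 at 118, Mrpl57 at 127 and Mrpl17 at 165. The representative transcript of Mrps25 is 6073 bases long, most of it 3′ UTR (5497 bases), and a cell that used a shorter one would have a higher level per kilobase.

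Other genes of mitochondrial translation were taken from lists. Of 5 ribosomal proteins with other symbols, 2 fell (40%, against 22.9% of all genes) and none rose. Those that fell were Dap3 (log2 fold change -0.39), a GTP-binding protein of the small subunit, and Ptcd3 (-0.19), a pentatricopeptide protein there. Among 30 genes for ribosome assembly and rRNA modification, 6 fell and 3 rose, with a median of -0.11. Lower genes made up 20% and higher genes 10% of this list, against 22.9% and 22% of all genes tested. Those that fell were Eral1 (-0.62), a GTPase that binds the small-subunit rRNA, the GTPase Mtg2 (-0.57), Mterf3 (-0.51), Malsu1 (-0.44), which keeps the subunits apart during assembly, the rRNA methyltransferase Nsun4 (-0.41) and Fastkd2 (-0.35). Those that rose were Mpv17l2 (0.45), the rRNA methyltransferase Mrm1 (0.27) and Ndufab1 (0.24), the mitochondrial acyl carrier protein. Of 16 translation factors, only the elongation factor Gfm1 fell (-0.19) and only the insertase Oxa1l rose (0.16), with a median of 0.02. The share called was 12.5%, below the 44.9% of all genes tested. The call of Oxa1l was lost without any 1 of the 5 libraries, as was that of Mrm1. Leaving out siCtl replicate 1 ended those of Mpv17l2 (0.34) and Ptcd3 (-0.18), and leaving out siCtl replicate 3 those of Gfm1 (-0.16), Malsu1 (-0.39), Nsun4 (-0.40) and Ndufab1 (0.16). The call of Mpv17l2 was also lost without siUpf1 replicate 1 (0.43) or replicate 2 (0.40).

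Of 9 tested genes for mitochondrial transcription and genome maintenance, 3 fell (33.3%, against 22.9% of all genes) and none rose. They were Tfb2m (log2 fold change -0.61), Polrmt (-0.22) and Tfam (-0.15), the transcription factor, RNA polymerase and DNA-packaging factor of the organelle. Among 10 nuclear regulators of mitochondrial genes, 4 fell and 2 rose, which is 40% and 20% against 22.9% and 22% of all genes. Those that fell were Gabpb1 (-0.56), a subunit of an ETS factor, the coactivator Pprc1 (-0.33), Yy1 (-0.23) and Nrf1 (-0.17). Esrra rose (0.31), and so did Mycn (1.34), the MYC family factor amplified in human neuroblastoma. Mycn had normalised counts of 274 and 244 in siCtl and of 673, 640.1 and 649 in siUpf1, with no overlap. The 4 regulators not called were Gabpa (-0.04), Myc (-0.09), Ppargc1b (-0.08) and Ppargc1a (1.29, at a mean normalised count of 13.2). Myc was the more abundant MYC family mRNA, with a siCtl mean of 6292 against 259 for Mycn. Polrmt (-0.21) was not called without siCtl replicate 3, nor Yy1 (-0.16) without siCtl replicate 1. Tfam and Nrf1 were not called when either siCtl library or siUpf1 replicate 3 was left out, Tfam also without siUpf1 replicate 2 and Nrf1 also without siUpf1 replicate 1. The rRNA of the large subunit, mt-Rnr2, was higher (0.35) and that of the small subunit, mt-Rnr1, was not called (0.28). The log2 fold change of mt-Rnr2 was 0.21 and not called once a length and GC trend was removed, and 0.17 with a replicate block as well. However, poly(A) capture does not measure these rRNAs evenly.

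**Figure D4:**
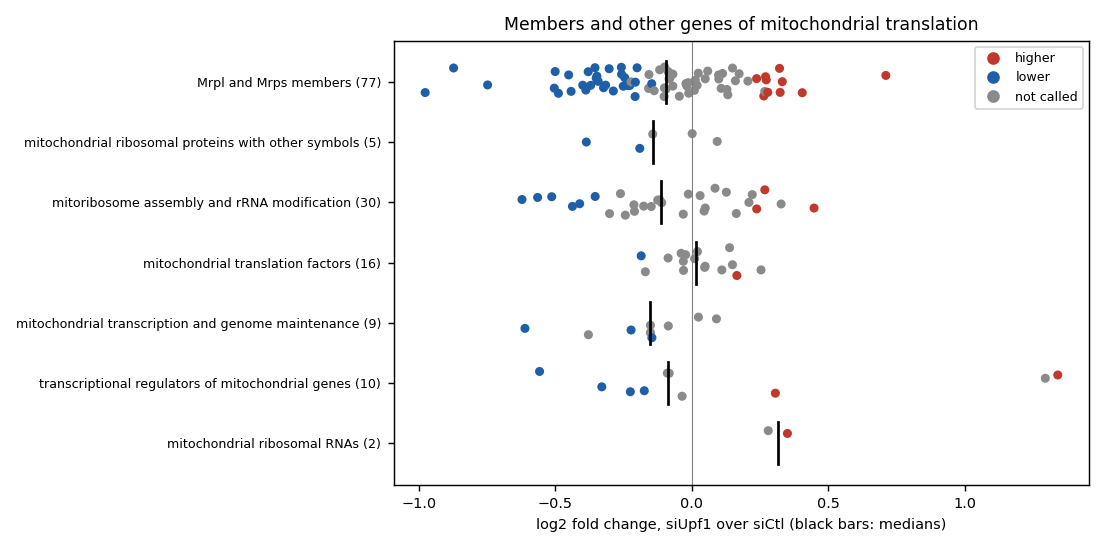
The log2 fold change of siUpf1 over siCtl (horizontal axis) is plotted for each tested gene of the members and of 6 lists from mitochondrial translation, with colour for the DESeq2 call and a black bar for the median. Medians lay at -0.09 for the 77 members, -0.11 for the 30 assembly genes and 0.02 for the 16 translation factors.

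Set beside the proteins of the cytosolic ribosome, the mitochondrial set had a median nearer to 0 and more genes that rose. Of 76 cytosolic ribosomal protein genes tested, 65 fell (85.5%) and 1 rose (1.32%), with a median log2 fold change of -0.28. Of 82 nuclear genes for the respiratory chain, whose partner subunits the mitochondrial ribosome makes, 25 fell and 10 rose, with a median of -0.07. The shares of this set were 30.5% lower and 12.2% higher. Among all genes they were 22.9% and 22%, and among mRNAs with a mean of at least 50, 29.1% and 27.3%. The median normalised count of a gene was 11605 in the cytosolic set, 2100 in the respiratory chain set and 1032 in the members. Small changes are called more readily at higher counts, so the shares of these sets are not fully comparable. The sets were described by their numbers of calls, and no test of the difference between them was made.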

How the data were processed

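N2A libraries were sequenced as poly(A)-selected stranded RNA. Per the methods and labels, the authors aligned reads with STAR 2.7.0f to GRCm38.p6 and made raw read counts per gene with featureCounts (Subread 1.6.4). Those counts, as deposited, were the unit used here. Assigned reads per library ranged from 20402205 to 27717594. DESeq2 1.42.0 (R 4.3.3) was fitted to all 55573 genes with siUpf1 against siCtl, its own size factors and independent filtering. Genes with a Benjamini-Hochberg adjusted p under 0.05 were called. Fold changes are siUpf1 over siCtl. Normalised counts are counts divided by size factors. Exons, lengths and overlaps came from GENCODE M21, whose IDs matched 99.8% of the table, and promoters from RefSeq. The fit was also run on counts simulated from its own means and dispersions. That run cannot speak to pairing or shared cultures, and its outcome is not given here. Values in every library were given for the 8 members with the largest called changes in each direction, with a mean of at least 100 and no overlap between groups. The members and lists were chosen with earlier results of these data known. Alternatives were edgeR 4.0.16, other size factors and filters, a length and GC trend, a replicate block and leaving out each library. Running these also on the exon correlation and on the counts of the lists and of members by exon number, subunit, descent, exit tunnel and decay annotation was chosen after seeing the data. Replicate numbers were compared for pairing, with correlations of -0.086 and -0.075 between deviations of same-numbered libraries over 11898 genes. The deviations of the siCtl libraries, of which there are only 2, mirror each other, so these values cannot decide whether the libraries were paired.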

Additional observations from a re-analysis of the deposited data

How the results depend on the processing

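Of the 40 members called, none changed direction under any alternative. edgeR kept all 40 and gave 15 higher and 32 lower, TMM size factors kept 40, total-count size factors 37 and removal of a length and GC trend 39. The median log2 fold change of the members was -0.073 with total-count size factors. Replicate numbers were shared by 2 pairs only, and with 2 siCtl libraries it could not be determined whether the numbers pair the libraries. With a replicate block 3 members were higher and 17 lower, and 20 calls were kept. With the length and GC trend removed as well as the replicate block, 5 were higher and 16 lower. Leaving out 1 library gave 4 to 10 higher and 20 to 28 lower members, a median of -0.124 to -0.084 and a log2 ratio of the members' summed share of -0.117 to -0.049. The 4 came without siCtl replicate 1 and the 20 without siCtl replicate 3, where the lone siCtl library was assumed to vary like the siUpf1 group. Of 959 further values for 64 named genes, 141 lost their call and 0 reversed. Among these values were fold changes shrunken by DESeq2, which keep the adjusted p of the main fit and so cannot lose a call. Counts in the other lists moved most for the assembly genes, with 3 higher and 6 lower as reported, 8 and 11 with edgeR, and 0 and 4 with the replicate block. Among the 9 transcription and genome maintenance genes 3 were lower, against 5 with edgeR, 6 with the trend removed and 1 with the replicate block. By exact permutation, 2 against 3 libraries allow no p under 0.1 for 1 gene.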
